A study of Arabidopsis thaliana with 18 samples.

Results

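The gun5 mutant of Arabidopsis thaliana was compared with its wild type, Col-0, when both had been grown on norflurazon. The comparison took every array of those groups, 3 of gun5 and 3 of Col-0, out of 18 arrays in the study. It covered 22746 of 22810 probe sets, which is all of them except 64 control probe sets. The groups used here were gun5 on 5 uM norflurazon, Col-0 on 5 uM norflurazon, gun5 without it, Col-0 without it, and gun1-9 on 5 uM norflurazon, each with 3 arrays. Seedlings were 5 days old in all groups and came from growth in continuous light on plates with sucrose, and the series design calls the 3 arrays of a group biological replicates. A level given below is a normalized probe-set intensity as deposited, and a difference is the mean log2(intensity + 1) of gun5 minus that of Col-0. SE stands for its standard error, taken from limma. A difference is called when its adjusted p is under 0.05 over all probe sets.

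Norflurazon inhibits phytoene desaturase, an enzyme of carotenoid synthesis, and plastids without carotenoids are bleached by light. In wild-type seedlings the transcripts of many nuclear genes for plastid proteins then fall, which is called plastid-to-nucleus retrograde signalling. The gun (genomes uncoupled) mutants were found because nuclear photosynthesis genes stay more active in them under this treatment. GUN5 encodes the H subunit of magnesium chelatase, which directs protoporphyrin towards chlorophyll, and GUN1 encodes a pentatricopeptide repeat protein of the plastid. The transcript of GUN5 itself was not analysed here, because no probe set is matched to that gene alone, and the labels do not say what the allele changes.

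Median intensity was between 14.7 and 16.3 on all 18 arrays. Across probe sets, Pearson's r of log2 levels was 0.993 to 0.996 between arrays of the same treated group and 0.972 to 0.979 between a gun5 and a Col-0 array. With 3 arrays a group, the number of arrays limits the precision. The log2(intensity + 1) scale understates differences of dim probe sets, and a group is called dim below an intensity of 3.79. Of 16 control probe sets for actin, GAPDH and ubiquitin, 10 were lower in all 3 gun5 arrays than in all 3 Col-0 arrays on norflurazon and 0 were higher, with a median difference of -0.39. Of 45 probe sets for bacterial and phage control RNAs (spike-in controls), 8 were higher in gun5 without overlap and 0 lower, with a median difference of 0.245. Over all probe sets tested, 3637 of 22746 (16%) were higher and 23.9% lower in gun5 with no overlap between the groups. The part of the control probe sets in the results below was not tested. The tissue check was thin: of 9 markers of roots and root hairs, only EXPA7, an expansin of root hairs, has a probe set of its own. It read 78.0, 79.2 and 132 in gun5 and 182, 117 and 108 in Col-0 (difference -0.49, SE 0.35, adjusted p = 0.341), so the groups overlapped.

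On norflurazon, 6246 probe sets differed between gun5 and Col-0, which is 27.5% of those tested. Of these, 2480 were higher in gun5 (10.9%) and 3766 were lower (16.6%). The large differences leaned the other way. At 2-fold or more, 1051 probe sets were higher (4.62%) and 296 lower (1.30%), and at 4-fold or more 236 were higher and 50 lower. The median difference over all probe sets was -0.03. The split differed with median centring: 39.7% of the called probe sets were higher as deposited, and 58.7% when each array was centred on its median, with 3351 higher and 2356 lower. Quantile normalization gave 40.5%, with 2521 higher and 3701 lower. The largest rise of all was on a probe set for which the annotation used here names no gene, singled out after its values were seen. It read 5053, 4689.7 and 5377 in gun5 and 21.2, 16.9 and 18.8 in Col-0 (difference 7.98, SE 0.11, adjusted p = 1.38e-17).

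**Figure D1:**
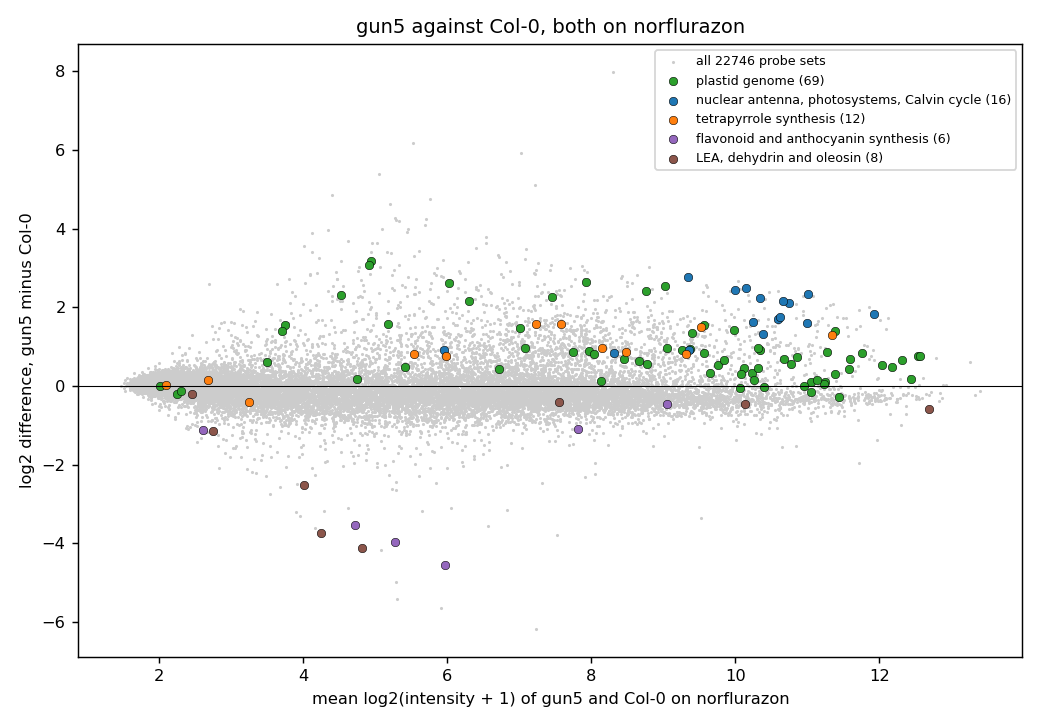
Each point is 1 probe set, with the mean log2(intensity + 1) of gun5 and Col-0 on norflurazon on the horizontal axis and the log2 difference, gun5 minus Col-0, on the vertical axis. Differences of nuclear photosynthesis genes lie between 0.82 and 2.77, plastid-encoded genes between -0.29 and 3.17, and the 6 flavonoid genes between -4.56 and -0.45.

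Genes for the light-harvesting antenna of photosystem II were higher in gun5. Only 3 of 20 listed antenna genes have a probe set of their own, all 3 of them forms of LHCB4, the CP29 protein that links the outer antenna to the photosystem II core. All 3 were called higher, with a median difference of 1.59. LHCB4.2 read 1574, 1498 and 2036 in gun5 and 211, 238 and 299 in Col-0 (difference 2.77, SE 0.14, adjusted p = 9.5e-11), and LHCB4.1 read 3360.2, 3558 and 3672 in gun5 and 962, 1251 and 1338 in Col-0 (difference 1.59, SE 0.11, adjusted p = 3.8e-09). LHCB4.3 read 79.2, 79.9 and 93.5 in gun5 and 53.1, 45.1 and 36.1 in Col-0 (difference 0.91, SE 0.15, adjusted p = 0.000131). In none of the 3 did the groups overlap, which with gun5 higher held for 16% of all probe sets. These levels in gun5 were still below those of untreated gun5 seedlings, where LHCB4.2 read 5043, 4528 and 4992, against 3959.9, 4456 and 4737 in untreated Col-0. In RNA of seedlings, a mixture of tissues, fewer cells of a type and less RNA per cell cannot be told apart.

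All 6 nuclear genes for photosystem and electron transport proteins that could be measured, of 36 listed, were called higher in gun5, with a median difference of 1.95. PSAE-1, a stromal subunit of photosystem I, had levels of 4684, 4476 and 4745 in gun5 and 916, 816 and 1044 in Col-0 (difference 2.33, SE 0.085, adjusted p = 3.9e-12). PSAN, a lumenal subunit of the same photosystem, had 3372, 3011 and 3842 in gun5 and 754, 837 and 710.4 in Col-0 (difference 2.15, SE 0.10, adjusted p = 3.97e-11). On the photosystem II side, the small subunits PSBY and PSBW differed by 2.25 and 1.32, and PSB27, which acts in assembly and repair of that complex, by 1.70. ATPC1, the gamma subunit of the chloroplast ATP synthase, differed by 1.75. For all 6 genes the lowest gun5 array was above the highest Col-0 array, beside the same 16%.

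The Calvin cycle and photorespiration moved in the same direction, with 7 of 7 measured genes (of 35 listed) called higher and a median difference of 1.84. Of all probe sets, 10.9% were called higher. PRK, the phosphoribulokinase that makes the acceptor for carbon dioxide, had levels of 2912, 2583 and 2577 in gun5 and 482, 496 and 453 in Col-0 (difference 2.49, SE 0.10, adjusted p = 8.68e-12). SBPASE, the sedoheptulose bisphosphatase of the regenerative phase, had 2520.4, 2052 and 2621 in gun5 and 457, 433 and 423 in Col-0 (difference 2.44, SE 0.10, adjusted p = 1.11e-11). HPR, the peroxisomal hydroxypyruvate reductase of photorespiration, differed by 2.11. RCA, the activase of Rubisco, had 7312, 7185 and 7473 in gun5 and 1843, 2236 and 2079 in Col-0 (difference 1.84, SE 0.081, adjusted p = 2.84e-11). Its gun5 level on norflurazon was close to that of untreated gun5, which read 7197, 6575 and 7473; the treated minus untreated difference was 0.05 in gun5, beside -1.89 in Col-0. The other 3 members, AT1G11860, AT1G80380 and AT1G56190, differed by 1.63, 0.92 and 0.82. Over the 3 lists, the median treated minus untreated difference was -1.52 in gun5 and -3.26 in Col-0 for the antenna genes, -0.69 in gun5 and -2.64 in Col-0 for the photosystem genes, and -0.55 in gun5 and -2.41 in Col-0 for the Calvin cycle and photorespiration.

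**Figure D2:**
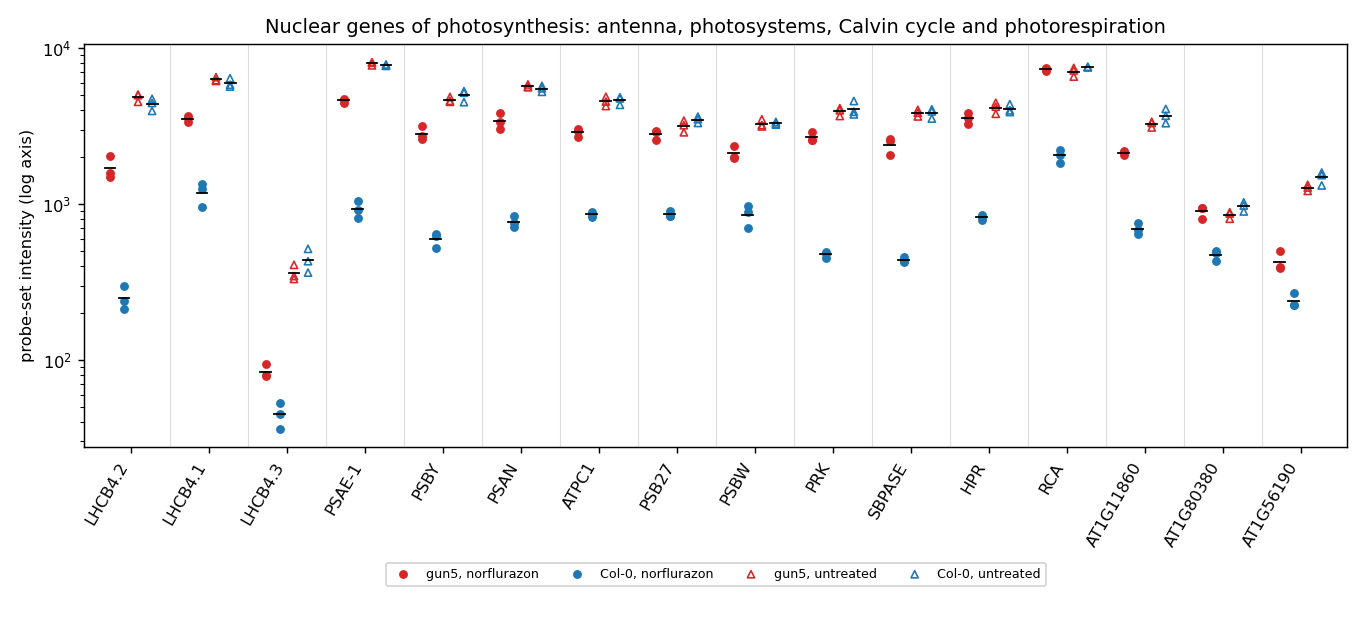
Intensity (log axis) of the 16 measured nuclear photosynthesis genes, with 1 point per array, black bars for means of 3 arrays, filled circles for norflurazon and open triangles for untreated seedlings. The gun5 circles lie above the Col-0 circles for all 16 genes, and the untreated triangles of both genotypes lie close together, with PRK at 2577 to 2912 in treated gun5 and 453 to 496 in treated Col-0.

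Nuclear genes that build or assist these complexes were also higher; the following families were chosen after values had been seen, so their counts are descriptions. All 8 measured nuclear genes of the chloroplast NDH complex, which runs cyclic electron flow around photosystem I, were called higher, with a median difference of 1.33. Of all probe sets, 10.9% were called higher. The subunit gene NdhN had levels of 330.2, 296 and 354 in gun5 and 34.6, 31.2 and 32.0 in Col-0 (difference 3.28, SE 0.12, adjusted p = 3.9e-12), and NdhL had 516, 461 and 532 in gun5 and 63.0, 63.3 and 51.8 in Col-0 (difference 3.07, SE 0.13, adjusted p = 2.09e-11). The subunit gene NdhS differed by 1.24, the assembly factor gene CRR41 by 1.30, and the RNA editing factor gene CRR21 by 1.37. CRR22 and CRR28, at differences of 0.52 and 0.53, were no longer called when any of 4 single arrays was left out for CRR22 (adjusted p up to 0.0915) or any of 2 for CRR28 (up to 0.0645).

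Factors that assemble or express photosystems and the cytochrome complex gave 7 of 7 higher, beside 10.9% of all probe sets, with a median difference of 1.68. They include CCB3, needed to attach heme to cytochrome b6 (difference 1.99, SE 0.16, adjusted p = 5.65e-08), HCF101, an iron-sulfur scaffold protein for photosystem I (difference 1.81, SE 0.12, adjusted p = 4.7e-09), and LPA19 and PAM68, which assist photosystem II assembly (differences 1.91 and 1.68). LPA2, LPA1 and LPA66 differed by 1.15, 1.09 and 0.60, and the last was not called without gun5 array 3 (adjusted p = 0.0564). CAF1, CFM3A and CFM3B, whose CRM-domain proteins splice plastid introns, were higher too, with differences of 1.56, 1.14 and 1.22. Of 8 thioredoxin and thioredoxin reductase genes, 5 were higher and 2 lower, beside 10.9% and 16.6% of all probe sets. The lower count became 1 with median centring or with only the compared arrays fitted. The higher ones were those of the plastid proteins THX (1.59), NTRC (1.51), TRXF2 (1.43), ty2 (0.86) and ATHM2 (0.67), and the lower ones were TY1, also of plastids (-0.55), and the mitochondrial TO1 (-0.56), of which TO1 was not called when any of 4 single arrays was left out (adjusted p up to 0.184). CaS, a thylakoid calcium-sensing protein, read 1032, 791 and 835 in gun5 and 128, 133 and 128 in Col-0 (difference 2.75, SE 0.11, adjusted p = 7.17e-12), and TAPX, the thylakoid ascorbate peroxidase that removes hydrogen peroxide, read 175, 152 and 165 in gun5 and 20.7, 17.3 and 20.6 in Col-0 (difference 3.01, SE 0.095, adjusted p = 1.03e-12).

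The tetrapyrrole pathway, in which GUN5 acts, was higher at most of its measured steps. Of 34 listed genes 12 could be measured. Of these, 9 were called higher, 0 lower, and 3 did not pass, with a median difference of 0.83. This stands beside 10.9% of all probe sets called higher and 16.6% called lower. Without Col-0 array 1, 1 member was called lower. In the early steps to protoporphyrin, HEMA2 of glutamyl-tRNA reductase differed by 0.76, GSA1 of glutamate-1-semialdehyde aminotransferase by 0.85, HEMB1 of aminolevulinate dehydratase by 0.81, and HEME1 and HEME2 of uroporphyrinogen decarboxylase by 1.59 and 0.97. HEME1 read 298, 275 and 213 in gun5 and 88.8, 84.8 and 83.8 in Col-0, with no overlap. In the chlorophyll branch, the magnesium chelatase subunit gene CHLI2 read 335, 295 and 358 in gun5 and 129, 106 and 98.5 in Col-0 (difference 1.56, SE 0.13, adjusted p = 4.79e-08). The next enzyme, the methyltransferase CHLM, read 1166, 1192 and 1343 in gun5 and 429, 403 and 484 in Col-0 (difference 1.49, SE 0.092, adjusted p = 1.38e-09), and AT1G74470, geranylgeranyl reductase, differed by 1.31.

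PORB, the light-dependent protochlorophyllide oxidoreductase, differed by 0.81. It read 65.1, 61.2 and 55.1 in gun5 and 29.9, 39.0 and 33.7 in Col-0 on norflurazon, and 816, 902 and 940.1 in gun5 and 891, 842 and 1138 in Col-0 without it. The groups did not overlap on norflurazon, and both treated groups were far below both untreated ones. The 3 genes that did not pass were HEMA3 (0.16), hemb2 (0.035) and hemf2 (-0.42), of which hemb2 was dim in both treated groups. In carotenoid synthesis, the pathway that norflurazon blocks, only 2 of 24 listed genes were measured and both were called higher: Z-ISO, zeta-carotene isomerase (188, 191 and 194 in gun5 and 85.0, 96.9 and 95.2 in Col-0; difference 1.04, SE 0.10, adjusted p = 2.24e-07), and LYC, lycopene cyclase (difference 1.19, SE 0.13, adjusted p = 1.18e-06).

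Plastid-encoded transcripts were higher in gun5 as well, with median differences from 0.14 to 1.39 by function. The 69 measured plastid genes gave 41 called higher and 0 lower, beside 10.9% and 16.6% of all probe sets. Their median difference was 0.68. Plastid genes are transcribed in shared operons, so neighbouring genes are not independent of each other. Leaving out 1 array at a time gave 32 to 41 called higher, and asking for a difference beyond 2-fold left 9.

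Photosystem I genes were called higher in 5 of 5 cases (median difference 1.39), ATP synthase genes in 6 of 6 (1.06), NDH complex genes in 8 of 10 (1.20) and photosystem II genes in 11 of 15 (0.85). Some of these calls depended on single arrays. The call of psbZ was lost whichever treated gun5 or Col-0 array was left out (adjusted p up to 0.136). That of psaJ was lost without Col-0 array 3, gun5 array 1 or gun5 array 2 (up to 0.154). Leaving out single arrays also removed the calls of atpA (adjusted p up to 0.0691) and ndhJ (up to 0.0596). The gene psbB, for the CP47 core antenna of photosystem II, read 104, 75.2 and 95.9 in gun5 and 8.97, 9.78 and 8.81 in Col-0 (difference 3.17, SE 0.14, adjusted p = 2.85e-11). Its neighbour psbT differed by 2.32, although the gun5 arrays spread from 30.4 to 89.7. The reaction centre gene psbA, for the D1 protein, read 1193, 758 and 1093 in gun5 and 221, 170.3 and 175 in Col-0 (difference 2.41, SE 0.27, adjusted p = 2.47e-06). The genes psbD and psbC, for the D2 protein and the CP43 antenna, differed by 2.62 and 2.55. For photosystem I, psaA of the reaction centre read 668, 716 and 467 in gun5 and 90.6, 91.8 and 109.6 in Col-0 (difference 2.63, SE 0.21, adjusted p = 2.93e-08), while psaB, the other reaction centre gene, differed by 1.39. Among NDH genes, ndhG read 102, 63.1 and 98.9 in gun5 and 12.8, 9.49 and 6.74 in Col-0 (difference 3.07, SE 0.22, adjusted p = 9.33e-09), followed by ndhE and ndhH at 2.26 and 2.15.

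Genes for gene expression and for the cytochrome complex had smaller median differences. Of the cytochrome b6f genes 1 of 6 was called (median 0.30), of the plastid RNA polymerase genes 1 of 4 (0.45), of large ribosomal subunit genes 1 of 7 (0.14) and of small subunit genes 3 of 8 (0.21). Of all probe sets, 10.9% were called higher, and 1 of 6 and 1 of 7 are near that share. The single calls in the first 3 of these groups, petL (0.96), rpoC2 (0.56) and rpl20 (0.86), were each lost when any of several single arrays was left out, with adjusted p up to 0.114 for petL, 0.191 for rpoC2 and 0.146 for rpl20. The 3 small subunit calls became 1 without Col-0 array 2, gun5 array 1 or gun5 array 2, with rps2 (adjusted p up to 0.129) and rps15 (up to 0.191) lost. The large subunit gene of Rubisco, rbcL, read 332, 289 and 260.1 in gun5 and 320.1, 209 and 287 in Col-0 (difference 0.13, SE 0.20, adjusted p = 0.715), with overlapping groups. The polymerase gene rpoA (0.041), the protease gene clpP (0.11) and the maturase gene matK (0.11) did not pass either. Of the remaining genes, 5 of 8 were called, among them the assembly genes ycf3 (0.95; adjusted p = 0.0573 without Col-0 array 2) and ycf4 (0.93), the cytochrome biogenesis gene ccsA (0.86) and accD of fatty acid synthesis (0.82). The median treated minus untreated difference was -0.29 in gun5 and -1.86 in Col-0 for photosystem I genes, and 0.50 in gun5 and -0.03 in Col-0 for large ribosomal subunit genes.

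**Figure D3:**
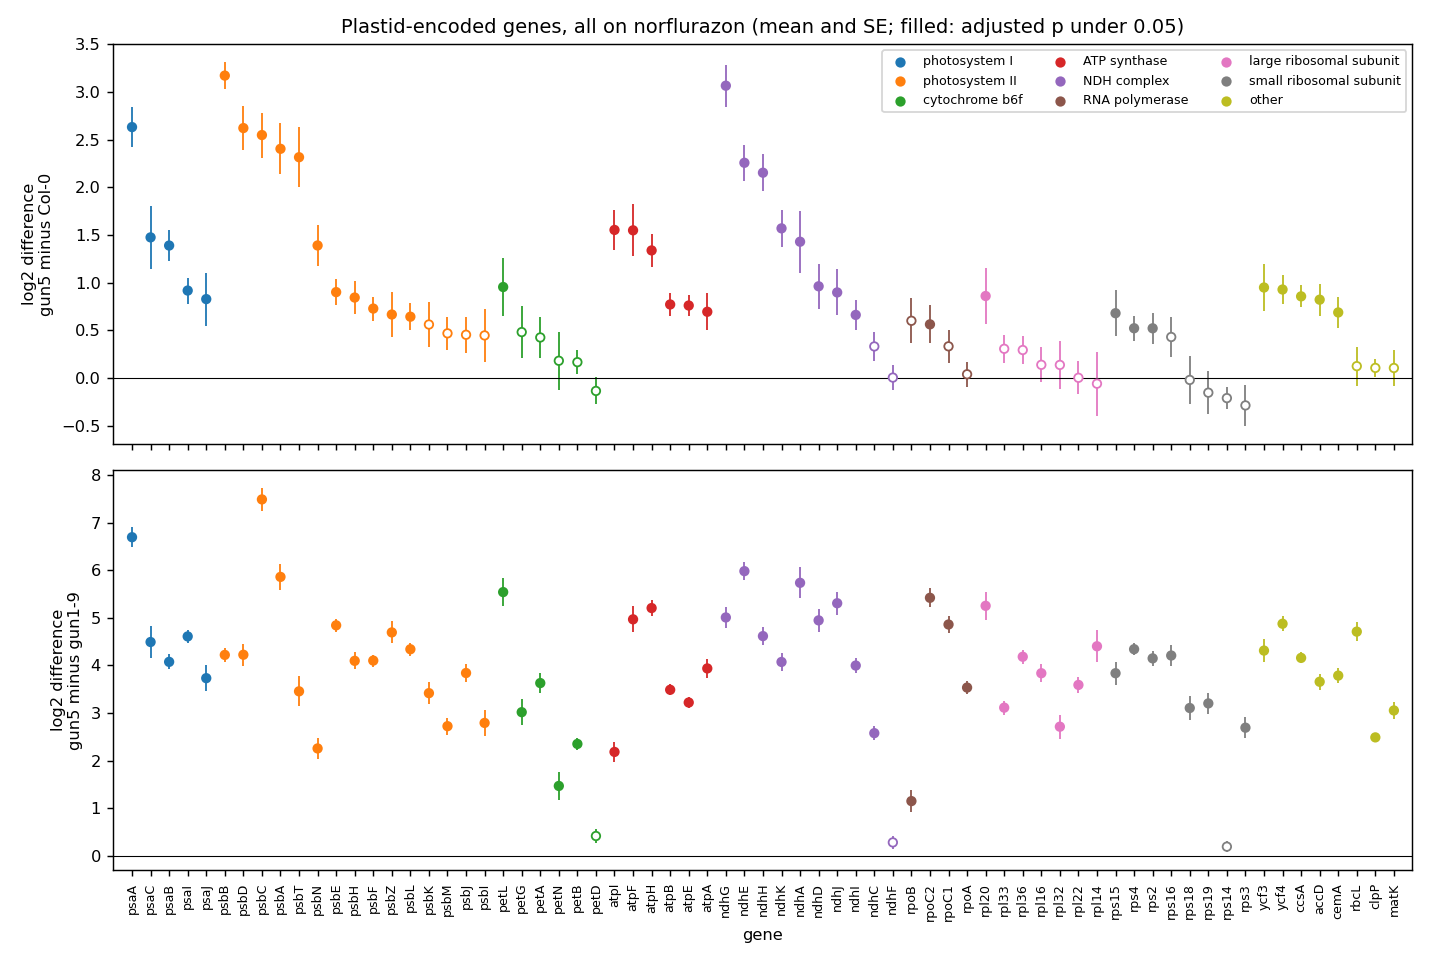
Log2 differences on norflurazon of 69 plastid-encoded genes, as means with SE, grouped by function and filled where the adjusted p is under 0.05; the upper panel gives gun5 minus Col-0 and the lower panel gun5 minus gun1-9. In the upper panel psbB is highest at 3.17 and most ribosomal protein genes are open symbols; in the lower panel 66 of 69 genes are called higher in gun5.

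By size, the largest rises on genes with a name were mostly of locus codes without a symbol. AT3G28270 read 123, 78.5 and 146 in gun5 and 2.18, 3.83 and 2.92 in Col-0 (difference 4.85, SE 0.20, adjusted p = 9.81e-12); its Col-0 level was dim on norflurazon, and untreated Col-0 read 93.8, 111 and 136. AT4G37560, AT2G25510, AT1G75460 and AT2G15020 followed at 4.26, 4.24, 3.98 and 3.91. The next were ATSPS4F, a sucrose-phosphate synthase of sucrose synthesis, at 396, 282 and 363 in gun5 and 27.9, 33.2 and 14.8 in Col-0 (difference 3.79, SE 0.21, adjusted p = 3.17e-10), and AT1G70820 (3.68), AT5G27290 (3.64) and AT2G03750 (3.63). AT3G21670, which the reference names NPF6.4 of the nitrate and peptide transporter family, differed by 3.51. AT4G12830, AT1G78995 and AT2G34620 differed by 3.41, 3.40 and 3.24. Only genes whose 3 gun5 arrays did not overlap the 3 Col-0 arrays were ranked, so the separation of these genes was fixed by that choice.

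Among genes with a symbol, the MADS-box gene AGL87 read 71.1, 55.4 and 80.5 in gun5 and 11.2, 5.20 and 5.01 in Col-0 (difference 3.17, SE 0.22, adjusted p = 5.74e-09). GIS, a zinc finger regulator of trichome formation, read 47.9, 36.0 and 51.0 in gun5 and 6.10, 5.32 and 5.00 in Col-0 (difference 2.81, SE 0.20, adjusted p = 9.38e-09). Without norflurazon it read 7.57, 9.41 and 6.56 in gun5 and 4.21, 9.70 and 6.71 in Col-0. Glutathione transferases, which conjugate glutathione to reactive compounds, went both ways: 3 of 14 were higher and 5 lower, beside 10.9% and 16.6% of all probe sets. GSTU18 and GSTU16 differed by 2.72 and 2.35, whereas GSTU20 read 23.0, 42.8 and 12.9 in gun5 and 98.8, 198 and 121 in Col-0 (difference -2.45, SE 0.33, adjusted p = 1.85e-05). Of 47 UDP-glycosyltransferase genes 12 were higher and 7 lower, beside 10.9% and 16.6% of all probe sets; the lower count is near that background. UGT73C1 stood at 75.3, 65.8 and 63.6 in gun5 and 12.7, 8.93 and 10.7 in Col-0 (difference 2.57, SE 0.13, adjusted p = 1.53e-10) and UGT84A3 at a difference of 1.55. The 7 lower calls became 4 when arrays were centred on their medians or gun5 array 1 was left out.

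Flavonoid and anthocyanin genes were lower in gun5. All 6 measured members, of 27 listed, were called lower, with a median difference of -2.33, beside 16.6% of all probe sets called lower. DFR, the dihydroflavonol reductase at the entry to the anthocyanin branch, read 17.6, 11.6 and 8.08 in gun5 and 403, 299 and 229 in Col-0 (difference -4.56, SE 0.43, adjusted p = 2.65e-07). UF3GT, which adds a sugar to anthocyanins, read 6.94, 11.3 and 8.35 in gun5 and 220.1, 121 and 132 in Col-0 (difference -3.98, SE 0.32, adjusted p = 4.43e-08). AT4G14090, entered in the list as a glucosyltransferase of anthocyanins, read 7.05, 7.20 and 6.01 in gun5 and 143, 76.8 and 64.1 in Col-0 (difference -3.54, SE 0.30, adjusted p = 7.82e-08). In all 6 measured members no gun5 array reached the lowest Col-0 array, which held for 23.9% of all probe sets. AT5MAT, the malonyltransferase of the same pathway, was dim in gun5 and differed by -1.12. The flavonol glycosyltransferase genes UGT78D1 and UGT78D2 differed by -1.10 and -0.45. Without norflurazon, DFR read 86.2, 55.3 and 77.5 in untreated gun5 and 23.7, 65.0 and 60.1 in untreated Col-0. With a constant of 16 in place of 1 before the log2, the median of the 6 genes was -1.62.

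The largest falls were of AT3G02480 and AT2G47780, for which the reference gives only locus codes, and ICL, a gene of lipid use by seedlings, was also among the 15 largest. AT3G02480 read 89.4, 7.37 and 6.38 in gun5 and 1549.7, 1159.6 and 1172 in Col-0 (difference -6.18, SE 0.89, adjusted p = 4.42e-05), with gun5 array 1 far above the other 2 gun5 arrays and still below each Col-0 array. AT2G47780 read 7.95, 8.19 and 6.38 in gun5 and 504, 462 and 329 in Col-0 (difference -5.65, SE 0.50, adjusted p = 1.17e-07). ICL, the isocitrate lyase of the glyoxylate cycle that turns stored lipid into sugar, read 357, 251 and 134 in gun5 and 2132, 2459.9 and 2493 in Col-0 (difference -3.36, SE 0.63, adjusted p = 0.000596). It was also the only measured member of the 10 listed seed genes. In this gene both treated groups were above their untreated ones, which read 4.47, 14.8 and 4.60 in gun5 and 478, 80.8 and 222 in Col-0.

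Of 8 measured late embryogenesis abundant (LEA), dehydrin and oleosin genes, a family chosen after values had been seen whose proteins protect drying cells and coat oil bodies, 6 were called lower and 0 higher, with a median difference of -0.87. Of all probe sets, 16.6% were called lower and 10.9% higher. LEA18 read 8.16, 4.30 and 5.45 in gun5 and 196, 81.5 and 97.8 in Col-0 (difference -4.11, SE 0.54, adjusted p = 1.51e-05). AtLEA4-1 and LEA4-5 differed by -3.75 and -2.52. The dehydrin gene LEA differed by -1.15, and was not called without Col-0 array 1 (adjusted p = 0.0657) or with a constant of 16 (adjusted p = 0.056). AT1G54410, a dehydrin named HIRD11 in the reference, read 5427, 5734 and 5109 in gun5 and 8412, 8015 and 7871 in Col-0 (difference -0.58, SE 0.08, adjusted p = 2.89e-05), and AT2G44060 differed by -0.45. The oleosin OLEO3 (-0.20) and AT2G46140 (-0.41) did not pass. Other locus codes among the largest falls were AT3G15670 (-4.17), AT1G04560 (-3.60) and AT5G66780 (-3.21).

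**Figure D4:**
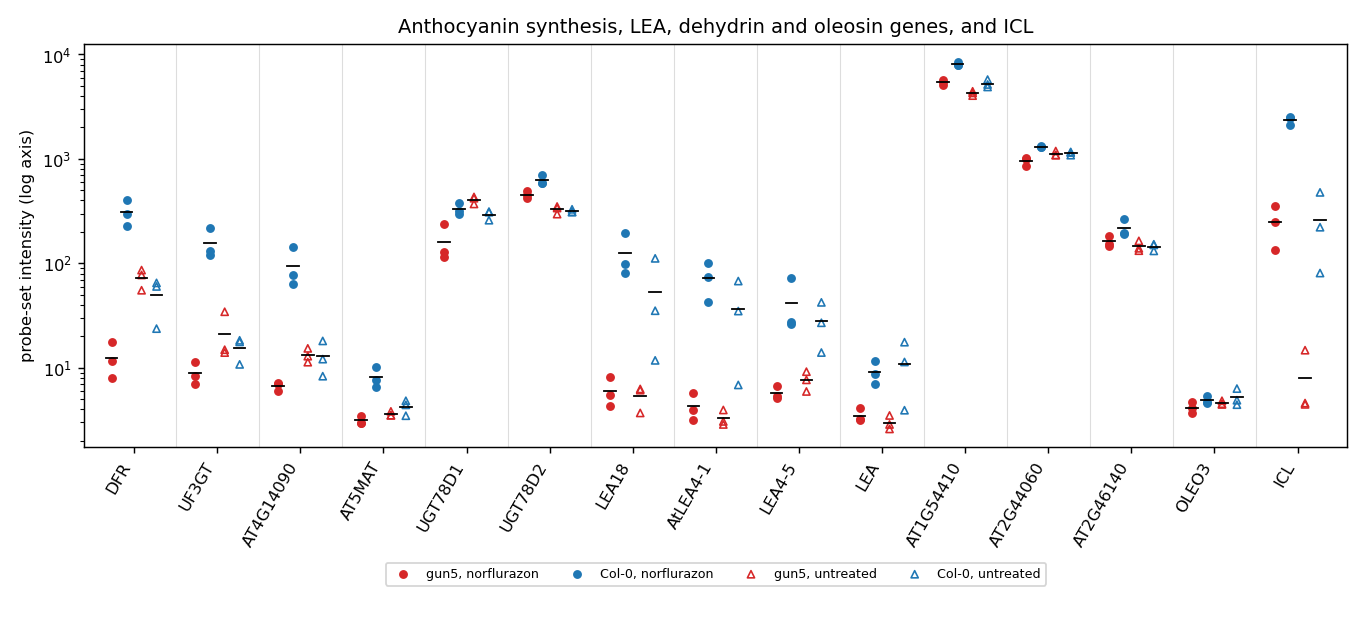
Intensity (log axis) of the flavonoid and anthocyanin genes, the LEA, dehydrin and oleosin genes, and ICL, with 1 point per array and black bars for means of 3 arrays. For DFR the treated gun5 arrays lie at 8.08 to 17.6 and the treated Col-0 arrays at 229 to 403; for LEA18 the untreated Col-0 arrays spread from 11.8 to 112.

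Among the largest falls of genes with a symbol were several proteases and a chitinase. ALPHA-VPE, a vacuolar processing enzyme that cleaves stored proteins, read 6.92, 6.98 and 7.53 in gun5 and 50.5, 36.3 and 30.4 in Col-0 (difference -2.27, SE 0.15, adjusted p = 3.01e-09), and its relative BETA-VPE differed by -1.69. CP1, a cysteine protease, read 84.6, 39.2 and 89.7 in gun5 and 307, 424 and 395 in Col-0 (difference -2.46, SE 0.26, adjusted p = 1.07e-06). ChiC, a class V chitinase, differed by -1.92, and ARPN, plantacyanin, by -1.79. SPT (SPATULA), a basic helix-loop-helix regulator of germination and carpel growth, read 7.55, 6.94 and 5.10 in gun5 and 28.9, 25.6 and 19.7 in Col-0 (difference -1.77, SE 0.16, adjusted p = 2.4e-07). The gene with the symbol chr31, AT2G47680 and AT4G22960 differed by -2.74, -2.65 and -2.58; chr31 was dim in gun5, so its difference is understated. AT4G22960 read 4.09, 3.99 and 4.54 in gun5 and 33.0, 32.8 and 25.2 in Col-0 on norflurazon, and 3.51, 3.09 and 2.65 in gun5 and 3.58, 3.64 and 3.61 in Col-0 without it, so the treated Col-0 arrays alone were above an intensity of 5.

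In the mitochondrial stress list, 4 of 13 genes were measured and 2 were lower. AT2G21640 read 172, 128 and 80.6 in gun5 and 610.5, 543 and 573 in Col-0 (difference -2.24, SE 0.25, adjusted p = 2e-06). NDB4, an alternative NADH dehydrogenase, was dim in gun5 and differed by -0.39. It lost its call without Col-0 array 1 (adjusted p = 0.055), without gun5 array 1 (0.0571) or with median centring (0.0571). For AT2G21640 both treated groups were far above untreated gun5, which read 7.99, 7.91 and 6.66. NDB2 (-0.27) and AT5G51440 (0.29) did not pass. The count of 2 lower among 4 stands beside 16.6% of all probe sets. In the antioxidant list, 5 of 20 genes were measured, with 2 higher and 1 lower, beside 10.9% and 16.6% of all probe sets. The lower count is near that background. TAPX (3.01) and CCS, the copper chaperone of superoxide dismutase (0.61), were higher and GSTU20 (-2.45) was lower, while the stromal ascorbate peroxidase SAPX (0.10) and the zinc finger gene STZ (0.41) did not pass. APL3, a large subunit of ADP-glucose pyrophosphorylase in starch synthesis, read 8.02, 4.43 and 4.96 in gun5 and 35.4, 27.8 and 19.3 in Col-0 (difference -2.06, SE 0.22, adjusted p = 1.61e-06). Of 3 cold and abscisic acid genes only COR47 was called (-0.38), and not when any of 4 single arrays was left out (adjusted p up to 0.156). Its call was also lost with median centring (adjusted p = 0.102) and with only the compared arrays fitted (adjusted p = 0.0895). In the clock and light list HYH, a relative of the light regulator HY5, was called higher (0.59) but not without Col-0 array 3 or gun5 array 1 (adjusted p = 0.0739 in both), and GI, a clock gene, did not pass (0.08). AT5G15700, the only measured member of 13 in the list of nuclear genes for plastid gene expression, did not pass (-0.12).

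How gun5 stood beside the other mutant on norflurazon was tested directly. Between gun5 and gun1-9, 2950 probe sets differed (13.0%), 1489 higher in gun5 (6.55%) and 1461 lower (6.42%). Plastid-encoded genes were higher in gun5: 66 of 69 genes were called higher in gun5, 0 lower, and the median difference was 4.07. The gene psbC read 1420.0, 1322 and 1053 in gun5 and 9.04, 3.92 and 5.86 in gun1-9 (difference 7.49, SE 0.24, adjusted p = 7.34e-13), psaA read 668, 716 and 467 in gun5 and 5.90, 4.78 and 4.03 in gun1-9 (difference 6.70, SE 0.21, adjusted p = 7.34e-13), and rbcL, which did not pass against Col-0, read 332, 289 and 260.1 in gun5 and 13.2, 9.10 and 8.79 in gun1-9 (difference 4.71, SE 0.20, adjusted p = 3.78e-11). ndhE, psbA and ndhA completed the 5 largest, at 5.98, 5.86 and 5.74.

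Between the mutants, most nuclear photosynthesis lists had small median differences. The 6 photosystem genes had a median difference of 0.04 between gun5 and gun1-9, with 1 called higher, and the 7 Calvin cycle and photorespiration genes one of 0.17, with 3 higher and 1 lower. All 3 LHCB4 genes were lower in gun5 than in gun1-9: LHCB4.2 read 1574, 1498 and 2036 in gun5 and 2406, 2711 and 2422 in gun1-9 (difference -0.57, SE 0.14, adjusted p = 0.00899). Of 12 tetrapyrrole genes 5 were higher and 1 lower, and of 8 genes of the nuclear NDH family 4 were higher and 1 lower. The counts between the mutants stand beside 6.55% of all probe sets called higher and 6.42% called lower. In lists this small, a single call does not stand out from those shares. Flavonoid genes had 4 of 6 lower, with DFR at 17.6, 11.6 and 8.08 in gun5 and 108, 182 and 106 in gun1-9 (difference -3.32, SE 0.43, adjusted p = 3.66e-05), and UDP-glycosyltransferases 10 of 47 lower and 0 higher. The other large falls were AT3G49160 (-4.30), AT2G29370 (-4.07), AT5G11410 (-3.85) and the heat shock protein gene Hsp70-2, which read 28.5, 22.7 and 29.9 in gun5 and 297, 464 and 388 in gun1-9 (difference -3.76, SE 0.16, adjusted p = 2.2e-11). For the LEA family, with 8 measured, and ICL no member was called between the mutants, beside 13.0% of all probe sets called. Differences of gun1-9 from Col-0 use the same Col-0 arrays as those of gun5 and are given only side by side: for the plastid genome the medians were 0.68 in gun5 and -3.24 in gun1-9, and for the antenna genes 1.59 in gun5 and 2.14 in gun1-9.

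Without norflurazon, far fewer probe sets separated gun5 from Col-0. On the untreated arrays 380 were called (1.67%), 198 higher (0.870%) and 182 lower (0.800%), and 123 were called when only the compared arrays were fitted. Of the antenna, photosystem, Calvin cycle, tetrapyrrole, carotenoid, flavonoid and plastid genome members, 0 were called in either direction. That count is near the 1.67% called over all probe sets. Among these members, PRK read 3996, 3673 and 4125 in untreated gun5 and 3911, 3761 and 4584 in untreated Col-0 (difference -0.052, SE 0.10, adjusted p = 0.908). The difference of the genotype effect between norflurazon and no treatment was called for 3831 probe sets (16.8%), 1986 more positive on norflurazon (8.73%) and 1845 more negative (8.11%). All 3 antenna, 6 photosystem, 7 Calvin cycle and photorespiration and 2 carotenoid genes were among the more positive, as were 9 of 12 tetrapyrrole genes and 33 of 69 plastid genes, and all 6 flavonoid genes were among the more negative.

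ICL and 4 of the LEA and dehydrin genes were called lower in gun5 in both conditions. Among the 5 largest untreated falls, ICL read 4.47, 14.8 and 4.60 in gun5 and 478, 80.8 and 222 in Col-0 (difference -4.71, SE 0.63, adjusted p = 0.000943), and AT3G15670, AT1G04560, AT3G17520 and AtLEA4-1 differed by -3.44, -3.38, -2.66 and -2.65. The 4 were LEA18, AtLEA4-1, LEA4-5 and LEA, of 8 measured. Untreated Col-0 arrays varied widely in these genes: LEA18 read 3.70, 6.12 and 6.28 in gun5 and 112, 11.8 and 35.2 in Col-0. The difference between the conditions did not pass for ICL (adjusted p = 0.353), AT3G02480 (adjusted p = 0.0618) or AT3G15670 (adjusted p = 0.666). The largest untreated rises were AT4G12490 (2.88), AT2G43620 (2.46), AT4G12500 (2.27), AT1G13650 (2.04) and AT2G24600 (1.85). On norflurazon only AT2G24600 among them was also called higher in gun5 (1.05).

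The treated and untreated comparisons share no array. They had 208 called probe sets in common, which is 3.33% of the treated calls and 54.7% of the untreated calls. Of these, 140 had the same direction, 77 higher and 63 lower in gun5, and 68 had opposite directions, 47 of them higher on norflurazon and lower without it. Across all 22746 probe sets Pearson's r between the 2 sets of differences was 0.092, given as a description because probe sets are not independent replicates.

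**Figure D5:**
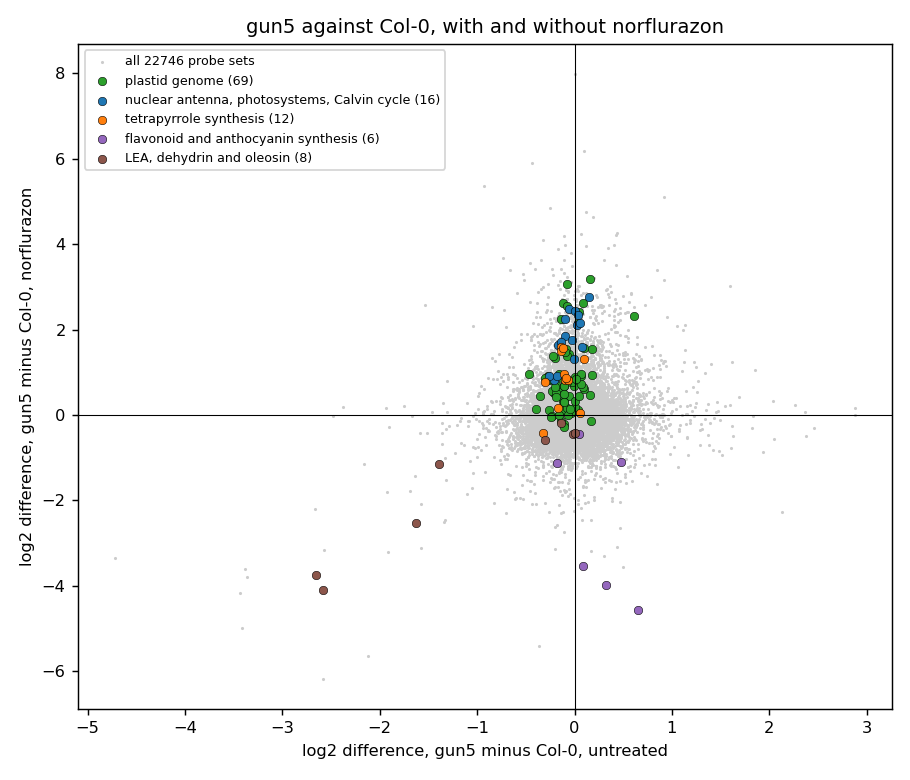
Log2 difference of gun5 minus Col-0 without norflurazon (horizontal axis) and on norflurazon (vertical axis), 1 point per probe set, with gene groups in colour. Photosynthesis, tetrapyrrole and plastid genes extend upwards along the vertical axis, up to 3.17 for psbB, and 4 LEA genes lie in the lower left, with AtLEA4-1 at -2.65 untreated and -3.75 on norflurazon.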

How the data were processed

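RNA of 18 samples was hybridised to single-colour Affymetrix arrays. The values used are normalized intensity values per probe set from the deposited value table. The submitters' processing notes name GCRMA and MAS5, with no version and no role for either; aligners do not apply, and other steps are not given in the sources used here. Values were taken as log2(intensity + 1), and 64 control probe sets were left out.

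One limma model (limma 3.58.1, R 4.3.3) with 6 groups was fitted to 22746 probe sets, and p-values were adjusted by Benjamini-Hochberg over all of them at a threshold of 0.05. It had 12 residual and 4.48 prior degrees of freedom. The dim level is the lower quartile of log2 levels of each array, averaged over all 18 arrays, an intensity of 3.79. Contrasts were gun5 against Col-0 on norflurazon, the same untreated, the difference between these, and gun5 against gun1-9 on norflurazon. In simulated data for the first contrast, 90.0% of 100 probe sets changed by 1 log2 unit and 100% of 100 changed by 2 were called, and 0.0532% of 22546 unchanged ones. The simulation changed only those few probe sets, in independent normal noise, whereas 27.5% of all probe sets were called in the data. Its shares therefore do not carry over to the data.

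Of all probe sets, 13513 are annotated with 1 gene, 503 with several and 8730 are not listed. Of the 13513 with 1 gene, 13436 matched the TAIR10.1 reference table. Also of the 13513, 1580 have a symbol other than a locus code. Only probe sets with 1 gene were named, so 55 of 315 listed genes could be measured. The members, lists and families were chosen with earlier results of these data known, and some families after their values were seen. Named genes were the 15 largest called differences in each direction, the 15 largest with a symbol, and list members. The 5 largest in each direction were also named for the untreated contrast and for the contrast between the mutants. Genes were ranked only where the gun5 arrays did not overlap those of the other group in that contrast. List members were named with or without overlap. Same-numbered gun5 and Col-0 arrays on norflurazon correlated at 0.0904, 0.0868 and 0.0362 in their deviations from group means. Differently numbered ones correlated at -0.136 to 0.0602. Numbers were not taken as pairs in the main fit, and whether they mark pairs was not tested. With the replicate number as a block, 6449 probe sets were called on norflurazon. Alternatives were another constant, leaving out dim probe sets, a trended and robust fit, median centring, quantile normalization, the compared arrays alone, a replicate block, a 2-fold test and leaving out each array. Tables and figures were made with Python 3.11.15, pandas 2.3.3 and matplotlib 3.10.9.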

Additional observations from a re-analysis of the deposited data

Results flagged for a closer look

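The effect of gun5 against Col-0 differed between norflurazon and untreated seedlings, tested as an interaction in the limma model, for 3831 probe sets (16.8%). It was more positive on norflurazon for 8.73% of all probe sets and more negative for 8.11%. More positive were 3 of 3 antenna, 6 of 6 photosystem, 7 of 7 Calvin cycle and photorespiration and 2 of 2 carotenoid genes. So were 9 of 12 tetrapyrrole genes and 33 of 69 plastid-encoded genes. All 6 measured flavonoid genes were more negative. Values below are the log2 difference on norflurazon minus the untreated one. Of the largest rises, AT3G28270 had 5.10, AT1G70820 4.41, AT2G25510 4.18, AT1G75460 4.07, AT1G78995 4.06, AT5G27290 3.97, AT4G37560 3.82 and AT4G12830 3.81. AT2G15020 had 3.57, AT2G03750 3.33, AT3G21670 3.09 and AT2G34620 2.71. Among genes with a symbol, AGL87 had 3.69, NdhN 3.51, NdhL 3.34, GSTU18 2.71, GIS 2.60, UGT73C1 2.54 and CaS 2.40. Of the falls, AT2G47780 had -3.53, AT2G47680 -3.11, chr31 -2.63, AT4G22960 -2.40, ALPHA-VPE -2.15, ChiC -2.12, SPT -1.69, BETA-VPE -1.52, ARPN -1.33 and CP1 -1.13. Groups of 3 arrays were not tested for a single outlying array.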

How the results depend on the processing

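The 2480 higher and 3766 lower probe sets of gun5 against Col-0 on norflurazon became 531 and 70, 601 in all, when a difference beyond 2-fold was required; the same test left 1 untreated probe set, 464 for the difference between conditions and 163 for gun5 against gun1-9. Centring each array on its median left 2356 lower calls. Fitting only the compared arrays gave 123 untreated calls, with fewer arrays to estimate the spread. Leaving out 1 treated array at a time gave 5196 to 5666 calls on norflurazon, 2171 to 2430 higher and 3025 to 3236 lower, with 335 to 400 untreated, 3262 to 3795 for the difference between conditions and 2376 to 2909 against gun1-9. With the replicate number as a block there were 6449 calls on norflurazon, 408 untreated, 3969 for the difference between conditions and 3050 against gun1-9, and 1 of 164 named or listed calls was lost, that of GH3.17. Of these 164, 4 were lost with a constant of 16, 88 with the 2-fold test and 9 to 17 with an array left out, and 0 reversed under any of these settings. The median of auxin response genes was -0.07 and became 0.053 when the dimmest 25% of probe sets were left out; the cause was not tested. Leaving out plastid-encoded probe sets, added after seeing the data, gave 6205 calls. Dim probe sets limit what can be seen: differences near an intensity of 3.79 are understated.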

Other observations

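The counts of the following families are descriptions, since the families were chosen with results known; over all probe sets 16.6% were called lower and 10.9% higher in gun5 on norflurazon. Of 7 tubulin genes, which encode the subunits of microtubules, 6 were called lower and 1 higher. TUB1 read 189.8, 145 and 145 in gun5 and 317, 311 and 291 in Col-0 (difference -0.94, SE 0.14, adjusted p = 7.16e-05), and TUA1, the higher one, differed by 0.74; the median difference was -0.57, beside -0.39 for the actin, GAPDH and ubiquitin control probe sets and -0.03 over all probe sets. TUB6 (-0.30) was not called when any of 3 single arrays was left out (adjusted p up to 0.0739). Its call was also lost with median centring (adjusted p = 0.103) and with only the compared arrays fitted (adjusted p = 0.0673). Of 9 xyloglucan endotransglucosylase genes, whose enzymes remodel cell walls, 3 were lower, 0 higher and 6 not called, XTH32 at a difference of -0.92, XTH16 at -0.84 and XTH19 at -0.71. Of 14 expansin genes, which loosen walls, 4 were lower, 1 higher and 9 not called, and the higher one was lost without Col-0 array 1, Col-0 array 2 or gun5 array 1 and in the trended fit. EXPA20 stood at 4.19, 4.18 and 2.92 in gun5 and 17.6, 10.2 and 12.2 in Col-0 (difference -1.57, SE 0.16, adjusted p = 9.03e-07). Their relation to the control probe sets was not tested.

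Of 29 serine carboxypeptidase-like genes 8 were lower and 1 higher, beside 16.6% and 10.9% of all probe sets, with scpl35 at -1.49 and scpl42 at 0.59. UGT73C1 was lower in gun5 than in gun1-9 although higher than in Col-0: it read 75.3, 65.8 and 63.6 in gun5 and 352, 284 and 289.7 in gun1-9 (difference -2.16, SE 0.13, adjusted p = 3.74e-09). UGT73B1 differed by 1.04 on norflurazon and by -0.79 without it, both called. AT2G21640 read 172, 128 and 80.6 in gun5 and 641, 479.8 and 563 in gun1-9 (difference -2.19, SE 0.25, adjusted p = 8.87e-06).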
